A study of Mus musculus with 6 samples.

Results

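Nipbl and 7 genes that load, hold or regulate cohesin (Mau2, Rad21, Pds5a, Esco1, Esco2, Hdac8 and Sgol1) were followed in mouse embryonic fibroblasts (MEFs). The 8 genes were chosen by name for their roles from the 38483 genes listed in the data, not by a rule on their values. Earlier results of these data were known when they were chosen. RNA-seq had been done on 3 WT and 3 Nipbl+/- cultures of the CD1 strain, all at passage 3, grown from littermate embryos after limbs, brain and internal organs were taken away. The Nipbl+/- embryos carried a heterozygous knockout of Nipbl, a mouse model of Cornelia de Lange syndrome, and the WT embryos were their littermates. No treatment is named for either genotype. The methods describe dissection from a single pregnant mouse, and the labels do not tie each culture to an embryo, so the p-values measure only the spread between these 6 cultures.

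Cohesin is a ring of the SMC proteins Smc1a and Smc3, closed by the kleisin Rad21 and bound by a Stag subunit, that holds sister chromatids together from S phase to mitosis and folds interphase chromatin into loops. Nipbl with its partner Mau2 puts the ring onto DNA, Pds5 proteins with Wapl take it off, Esco1 and Esco2 acetylate Smc3 to lock it in place, Hdac8 removes that acetyl group, and shugoshin (Sgol1, now named Sgo1) guards the ring at centromeres until anaphase. Cornelia de Lange syndrome is a developmental disorder caused mostly by loss of one copy of NIPBL in patients, and less often by mutations in the genes for other cohesin proteins or for HDAC8.

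The data hold no reads for any of the 19214 genes of the plus strand, which stand at 0 in every culture, so Smc1a, Smc3, Stag1, Stag2, Pds5b, Wapal (the gene for Wapl) and Ctcf could not be described. The 8 genes studied here all lie on the minus strand. Total counts per culture lay between 20307454 and 25990783. Of 15 fibroblast markers, 11 were plus-strand genes listed at 0, among them Col1a1, Col1a2 and Pdgfra, and the other 4 (Fn1, Sparc, Fbn1 and Col6a1) summed to between 21950 and 25800 CPM in WT and between 23000 and 25610 CPM in Nipbl+/- cultures. Most of this sum was Fn1 (log2 fold change 0.12), while Col6a1 (-0.50), Fbn1 (-0.32) and Sparc (-0.11) had lower means in Nipbl+/- cultures, Sparc with its ranges apart, and 0 of the 4 passed the quasi-likelihood test (2 had an unadjusted p under 0.05). CPM is the count per 1000000 counts of the library after TMM normalization. The 10 macrophage markers that could be tested summed to 59.1 to 78.6 CPM in WT and 96.3 to 190 CPM in Nipbl+/- cultures, with replicate 2 highest. All 10 had a higher mean in Nipbl+/- cultures, and 0 passed the quasi-likelihood test of edgeR used throughout (9 had an unadjusted p under 0.05), against 6 by its exact and likelihood ratio tests, 5 by DESeq2 and 0 by limma on RPKM. The 7 further macrophage markers listed, Csf1r, Itgam and Mrc1 among them, were plus-strand genes at 0. The epithelial, muscle and neural markers that could be tested (2, 1 and 2 of 8 in each list) summed to under 3 CPM in every culture. The 2 tested endothelial markers of 8, Flt1 and Kdr, summed to 67.9 to 102 CPM in WT and 69.5 to 91.7 CPM in Nipbl+/- cultures. Of these epithelial, muscle, neural and endothelial lists, 4, 5, 4 and 5 genes were plus-strand genes at 0. The sums thus cover only part of each list. Both genotypes held cultures of either sex by their sex-linked genes. Xist, the RNA that coats the inactive X chromosome, had 7770, 7544 and 7882 counts in WT replicate 3 and Nipbl+/- replicates 1 and 2 and at most 25 elsewhere, while the Y-linked Ddx3y had 5859, 5471 and 5240 counts in WT replicates 1 and 2 and Nipbl+/- replicate 3 and at most 11 elsewhere.

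Nipbl mRNA was lower in the Nipbl+/- cultures, and Mau2, the gene for its partner, was not called. Nipbl (ENSMUSG00000022141, mm10 chromosome 15, 8291225 to 8444463, 47 exons after merging of its transcripts) had 2830, 3253 and 2904 counts in WT replicates 1 to 3 and 2233, 2651 and 2101 counts in the Nipbl+/- cultures. On the CPM scale these were 128.4, 144.8 and 134.7 in WT against 100.7, 101.3 and 100.3 in Nipbl+/-. The 3 Nipbl+/- cultures lay within about 1 CPM of each other and all below the lowest WT culture. The group means were 136 ± 8.26 CPM and 100.8 ± 0.505 CPM (SD, n = 3 each), a log2 fold change of -0.43 with an SE of 0.057 and a 95% interval of -0.56 to -0.30, and the change passed the test (adjusted p = 0.0213 by the quasi-likelihood test of edgeR, with the adjustment of Benjamini and Hochberg made over 9061 tested genes).

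The mutant cultures thus held 74.1% of the WT level of Nipbl, with an interval of 67.7% to 81.1% that lies above 50%, the level left if only one of 2 equally active alleles gave counted message. Reads were counted over the whole gene, so message from the targeted allele and from the intact allele could not be separated. In these bulk cultures less Nipbl RNA per cell and fewer cells that express Nipbl cannot be told apart. Among the cultures with Ddx3y counts, Nipbl stood at 128.4 and 144.8 CPM in the WT cultures against 100.3 CPM in the mutant one, and among those with Xist counts at 134.7 CPM in WT against 100.7 and 101.3 CPM. The direction was the same in both sets. The exact two-sided permutation test of log2 CPM gave p = 0.1, the smallest that 3 against 3 cultures allow. Without WT replicate 1, Nipbl+/- replicate 1 or Nipbl+/- replicate 2 the adjusted p of Nipbl was 0.0755, 0.0864 and 0.0772, with log2 fold changes of -0.47, -0.43 and -0.44.

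Mau2 (ENSMUSG00000031858, chromosome 8, 70016123 to 70042734) encodes the tetratricopeptide partner that stabilises Nipbl in the loader. It had 89.25, 88.34 and 92.1 CPM in WT and 90.51, 80.52 and 89.71 CPM in Nipbl+/- cultures. The groups overlapped, with Nipbl+/- replicate 2 lowest. The log2 fold change of Mau2 was -0.05 (SE 0.058, adjusted p = 0.721, edgeR), and its 95% interval allows a Nipbl+/- level between 88.1% and 106% of WT. The upper end for Nipbl, 81.1%, and the lower end for Mau2, 88.1%, do not meet. The counts of Nipbl per count of Mau2, a ratio that no library scaling can alter, were 1.44, 1.64 and 1.46 in WT and 1.11, 1.26 and 1.12 in Nipbl+/- cultures. All Nipbl+/- ratios were below all WT ratios, a difference in mean log2 ratio of -0.38, so that Nipbl stood at 76.8% of WT relative to Mau2 (exact permutation p = 0.1, and 0.1 after adjustment over the 7 ratios taken). The 7 ratios share the Nipbl counts, so they are not independent of each other.

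**Figure D1:**
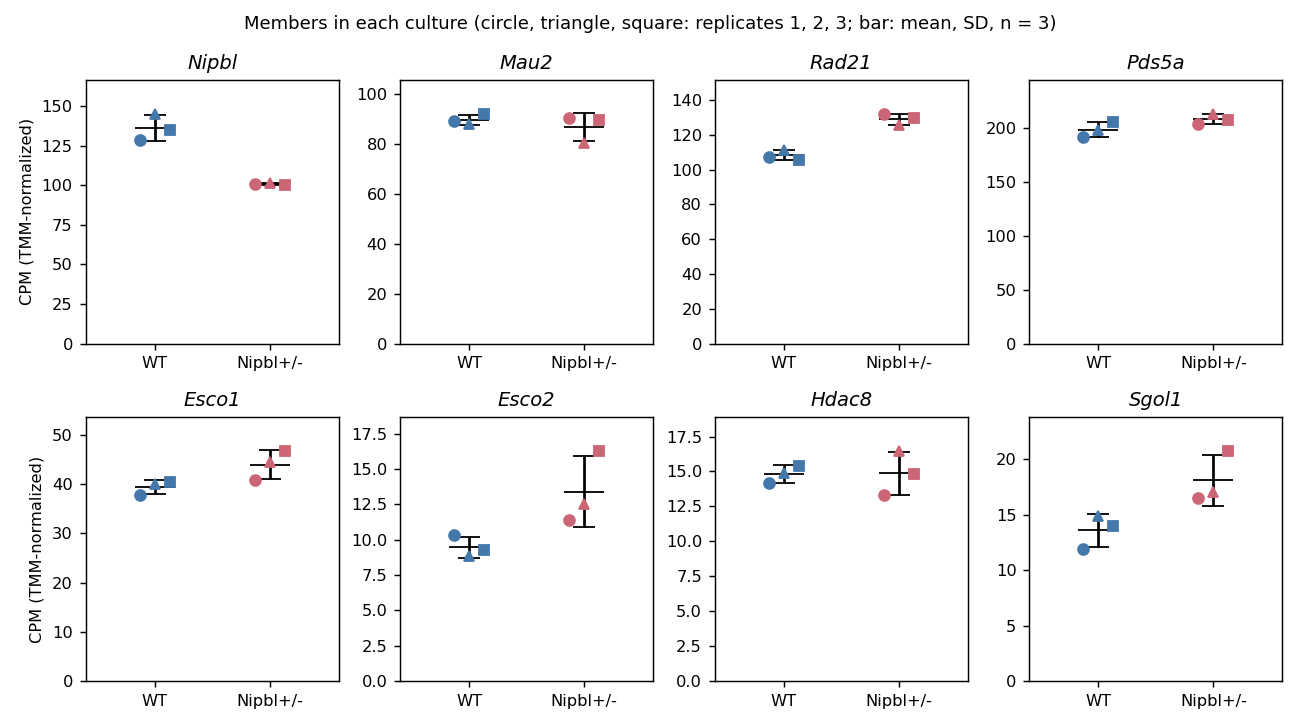
TMM-normalized CPM (vertical axes, from 0) of the 8 genes in each of the 3 WT (blue) and 3 Nipbl+/- (red) cultures, with circles, triangles and squares for replicates 1, 2 and 3 and the bar for the mean with its SD. Nipbl lies at 100.3 to 101.3 CPM in the mutant cultures against 128.4 to 144.8 CPM in WT, Rad21, Esco1, Esco2 and Sgol1 lie higher in all mutant cultures than in any WT culture, and Mau2, Pds5a and Hdac8 overlap.

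Of the 8 genes, all of which passed the filter on low counts, 1 was lower (Nipbl) and 1 higher (Rad21) at an adjusted p under 0.05. Nipbl is the gene knocked out in the mutant, so its call checks the labels and is no result about the other genes. It is also among the 5 genes with ranges apart and the 5 with an unadjusted p under 0.05. Over all 9061 tested genes 0.916% were lower and 1.04% higher by the same test, 1.95% in either direction. The CPM ranges of the genotypes were apart for 5 of the 8 genes, 4 of them with the Nipbl+/- cultures above (Rad21, Esco1, Esco2 and Sgol1) and 1 below. Among all tested genes the ranges were apart for 22.8%, with 12% above and 10.8% below. An unadjusted p under 0.05 was reached by the same 5 genes and by 16.9% of all tested genes, whose median log2 fold change was -0.0057.

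Rad21 (ENSMUSG00000022314, chromosome 15, 51962605 to 51991760) encodes the kleisin that closes the ring and is cut by separase at anaphase, and it was the only core subunit of the ring on the minus strand. Its CPM was 107.5, 111.5 and 105.8 in WT and 131.9, 125.6 and 129.4 in Nipbl+/- cultures. Every Nipbl+/- culture was above every WT culture by at least the spread within a genotype. The means were 108.3 ± 2.92 and 129 ± 3.18 CPM (SD, n = 3 each), so Rad21 rose by 0.25 on the log2 scale (SE 0.050, 95% interval 0.14 to 0.37), to 119% of WT, with an adjusted p of 0.0467 by edgeR's quasi-likelihood test, just inside the threshold. It was past the threshold without WT replicate 2 (adjusted p = 0.0486) but not without any of the other cultures (0.16 without WT replicate 1, 0.101 without WT replicate 3, and 0.152, 0.115 and 0.106 without Nipbl+/- replicates 1, 2 and 3). Upper-quartile normalization, the block on replicate number, the Xist covariate and limma on RPKM also left it above the threshold, at adjusted p = 0.0563, 0.0921, 0.0504 and 0.0742, while its log2 fold change in these fits stayed between 0.24 and 0.29. The ratio of Nipbl to Rad21 counts was 1.19, 1.30 and 1.27 in WT and 0.763, 0.807 and 0.775 in Nipbl+/- cultures. Nipbl had more counts than Rad21 in every WT culture and fewer in every Nipbl+/- culture, and the ratio stood at 62.3% of WT (exact permutation p = 0.1). These counts are not divided by gene length. In the deposited RPKM, which is, Rad21 was above Nipbl in both genotypes (means of 28.6 against 14.7 in WT).

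Pds5a (ENSMUSG00000029202, chromosome 5, 65615260 to 65697856) encodes a HEAT-repeat protein that binds the ring and serves both its release by Wapl and its upkeep. It had 191.7, 198.1 and 205.7 CPM in WT and 204.1, 213.1 and 208.1 CPM in Nipbl+/- cultures. The groups overlapped, since WT replicate 3 was above Nipbl+/- replicate 1. The means of 198.5 ± 7.02 and 208.4 ± 4.49 CPM (SD, n = 3) gave a log2 fold change of 0.07 (SE 0.050, adjusted p = 0.529, edgeR), and the interval of 97% to 114% of WT leaves room for a small change either way. There are 2 unlisted plus-strand transcripts in GENCODE M21 that share 1.32% and 0.62% of the exonic length of Pds5a, and none of the other 7 genes shares exonic bases with another gene.

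**Figure D2:**
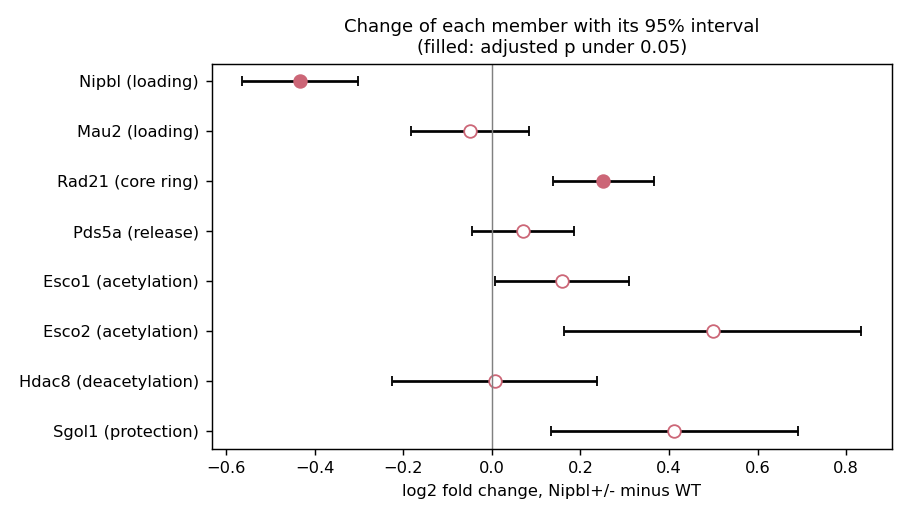
Log2 fold change (horizontal axis, Nipbl+/- minus WT) of each of the 8 genes with its 95% interval from edgeR's quasi-likelihood test, n = 3 cultures a genotype. Filled points, Nipbl at -0.43 and Rad21 at 0.25, had an adjusted p under 0.05, and the open points of Esco2 (0.50) and Sgol1 (0.41) lie farther from 0 than Rad21 with wider intervals.

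The pair of acetyltransferases that lock cohesin on chromatin both had higher means in Nipbl+/- cultures, and neither passed the adjusted threshold. Esco2 (ENSMUSG00000022034, chromosome 14, 65819038 to 65833994), which acts at replication forks in S phase and whose loss causes Roberts syndrome in humans, was counted 227, 199 and 199 times in WT and 253, 328 and 340 times in Nipbl+/- cultures, or 10.3, 8.86 and 9.23 against 11.4, 12.5 and 16.2 CPM. All Nipbl+/- cultures were above all WT cultures, replicate 1 by about 1 CPM and replicate 3 by far the most. The log2 fold change of Esco2 was 0.50 (SE 0.15, 95% interval 0.16 to 0.83, adjusted p = 0.131, edgeR), the farthest from 0 among the 8 genes and the least precise. Esco2 was also the gene with the fewest counts. Without Nipbl+/- replicate 3 it was 0.34. Esco1 (ENSMUSG00000024293, chromosome 18, 10566602 to 10610352), which acts on cohesin through interphase, had 37.8, 40.1 and 40.4 CPM in WT and 40.9, 44.5 and 46.7 CPM in Nipbl+/- cultures. The nearest cultures of the genotypes were less than 1 CPM apart. Its log2 fold change was 0.16 (SE 0.066, 95% interval from just above 0 to 0.31, adjusted p = 0.278, edgeR), or 112% of WT. The ratio of Nipbl counts to those of Esco1 stood at 66.6% and to those of Esco2 at 52.9% of WT, both with no overlap between genotypes (exact permutation p = 0.1).

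Hdac8 (ENSMUSG00000067567, chromosome X, 102284639 to 102505359), the deacetylase that recycles Smc3 after its release and itself a Cornelia de Lange gene, was close to the same mean in both genotypes. It had 14.2, 14.9 and 15.4 CPM in WT and 13.4, 16.4 and 14.8 CPM in Nipbl+/- cultures. The Nipbl+/- cultures held both the lowest and the highest value. The means were 14.8 ± 0.626 and 14.9 ± 1.54 CPM (SD, n = 3), with a log2 fold change of 0.01 (SE 0.10, adjusted p = 0.983, edgeR) and an interval of 85.6% to 118% of WT, so that a difference inside these bounds could not be seen with these cultures. As a gene of the X chromosome it could be set beside Xist. In the cultures with Xist counts Hdac8 had 15.4 CPM in WT and 13.4 and 16.4 CPM in Nipbl+/-, and in those with Ddx3y counts 14.2 and 14.9 CPM in WT and 14.8 CPM in Nipbl+/-. The genotypes overlapped in both sets.

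Sgol1 (ENSMUSG00000023940, chromosome 17, 53674786 to 53689333), the shugoshin that keeps centromeric cohesin from early removal in mitosis, was counted 263, 334 and 301 times in WT and 367, 446 and 434 times in Nipbl+/- cultures. In CPM these were 11.9, 14.9 and 14.0 against 16.6, 17.1 and 20.7. Each Nipbl+/- culture was above each WT culture. The log2 fold change of Sgol1 was 0.41 (SE 0.12, 95% interval 0.13 to 0.69, adjusted p = 0.135, edgeR), or 133% of WT. Nipbl counts relative to Sgol1 stood at 10.8, 9.74 and 9.65 in WT and 6.08, 5.94 and 4.84 in Nipbl+/- cultures, 55.7% of WT.

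**Figure D3:**
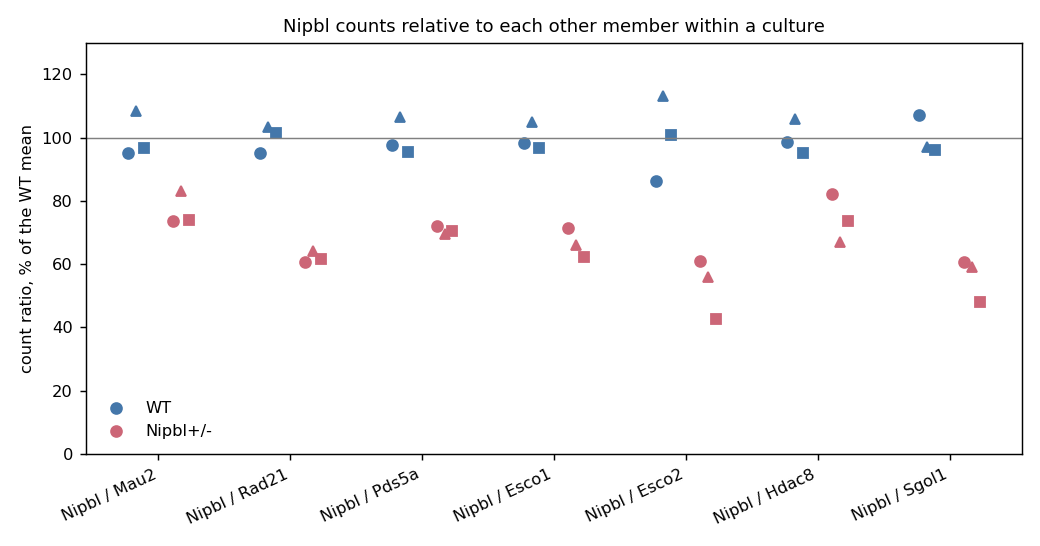
Counts of Nipbl divided by the counts of each of the other 7 genes in the same culture, as percent of the WT mean of that ratio (vertical axis, from 0), for WT (blue) and Nipbl+/- (red) cultures with circles, triangles and squares for replicates 1 to 3. In all 7 ratios the mutant cultures lie below every WT culture, from 76.8% of WT against Mau2 to 52.9% against Esco2. All share the Nipbl counts, whose own CPM ranges were apart, so these are not 7 separate results.

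The promoters of 3 of these genes are shown because they set a mitotic gene with higher values in every Nipbl+/- culture (Sgol1) beside a loader gene and an X-linked gene whose genotypes overlapped (Mau2 and Hdac8). The sequences are those of RefSeq on GRCm38.p6, 250 bases before to 50 after the start site, on the minus strand of the genome, read 5′ to 3′ (Sgol1 chr17:53689266-53689565, Mau2 chr8:70042685-70042984, Hdac8 chrX:102505109-102505408). Capitals mark the hexamers TTTGAA and TTCGAA, the letters of the cell cycle genes homology region found in many G2 and M phase promoters, and the pentamer CCAAT of the CCAAT box, each searched on both strands.
Sgol1: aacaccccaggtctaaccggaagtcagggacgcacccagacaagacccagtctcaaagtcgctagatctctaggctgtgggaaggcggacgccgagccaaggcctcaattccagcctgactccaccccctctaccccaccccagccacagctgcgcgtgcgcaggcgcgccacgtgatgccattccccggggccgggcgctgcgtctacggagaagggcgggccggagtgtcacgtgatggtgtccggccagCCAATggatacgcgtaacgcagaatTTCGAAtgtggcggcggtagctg
Mau2: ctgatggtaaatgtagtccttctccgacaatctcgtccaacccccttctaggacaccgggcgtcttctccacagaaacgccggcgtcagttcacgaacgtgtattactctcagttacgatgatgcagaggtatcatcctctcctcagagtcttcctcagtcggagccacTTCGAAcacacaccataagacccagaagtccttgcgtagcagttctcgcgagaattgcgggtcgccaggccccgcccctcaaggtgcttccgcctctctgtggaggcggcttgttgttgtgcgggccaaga
Hdac8: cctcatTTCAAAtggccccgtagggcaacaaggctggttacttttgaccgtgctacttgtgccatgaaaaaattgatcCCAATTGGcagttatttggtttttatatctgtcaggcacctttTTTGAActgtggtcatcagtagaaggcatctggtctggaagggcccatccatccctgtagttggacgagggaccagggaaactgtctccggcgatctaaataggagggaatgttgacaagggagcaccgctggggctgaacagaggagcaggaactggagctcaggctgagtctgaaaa
The Sgol1 window held CCAAT from base 3 and TTCGAA from base 28 after the start site. The Mau2 window printed held TTCGAA from base -81 and no CCAAT. A further RefSeq window of Mau2 inside the gene (chr8:70029464-70029763) held neither of the hexamers and no CCAAT. The Hdac8 window held TTTGAA from base -129 and, on the opposite strand, from base -244, and CCAAT from bases -172 and -169 on opposite strands, where the matches overlap. TTCGAA, which reads the same on both strands, was in 1.56% of the 32851 promoters of this kind in RefSeq, TTTGAA in 17.9% and CCAAT in 37.4%. Pds5a, whose window was 80.3% G and C, held none of these letters. One of the hexamers was in 19.2% of all these promoters and in 19 of the 24 RefSeq promoters of the mitosis list described later. At least one of them stood in each of the windows printed for Sgol1, Mau2 and Hdac8. The RefSeq promoters used here held no window for Nipbl, Rad21, Esco1 or Esco2.

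Per unit of length the 8 genes spanned more than an order of magnitude. In the deposited RPKM, which divides counts by the length of the gene and the size of the library, the WT means were 45.6 ± 2.68 for Pds5a, 28.6 ± 0.582 for Rad21, 15.9 ± 0.727 for Mau2, 14.7 ± 0.931 for Nipbl, 8.21 ± 0.444 for Esco1, 3.40 ± 0.403 for Sgol1, 2.92 ± 0.189 for Hdac8 and 2.25 ± 0.165 for Esco2 (SD, n = 3). Pds5a, Rad21 and Esco1 stood apart from their neighbours in this order in every WT culture. Mau2 (15.42 to 16.72) and Nipbl (13.65 to 15.45) overlapped at their ends, as did Sgol1 (2.93 to 3.67) and Hdac8 (2.74 to 3.12), while Hdac8 and Esco2 (2.08 to 2.41) did not. In Nipbl+/- cultures Mau2 (15.8 ± 1.09) and Nipbl (11.2 ± 0.132) no longer overlapped, and Esco2 (3.28 ± 0.669) and Hdac8 (3.01 ± 0.320) changed places with overlapping ranges.

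The order depends on the gene length taken. The length implied by the deposited RPKM of Pds5a is 4287 bases, against 19335 bases of merged exons in GENCODE M21, and for Mau2 it is 5573 against 9131 bases. With the GENCODE lengths the WT means ran Rad21 25.2, Nipbl 14.2, Pds5a 10.1, Mau2 9.72, Esco1 7.63, Sgol1 3.52, Hdac8 3.02 and Esco2 1.40 RPKM. Nipbl then came next to Rad21 in WT, at more RPKM than Mau2. In Nipbl+/- cultures Rad21 stood at 30.9 RPKM. Pds5a (10.9 ± 0.307) and Nipbl (10.8 ± 0.14) followed there (SD, n = 3), with means closer than either SD, so their order is not resolved. Rad21 was above Nipbl, and Esco1, Sgol1 and Hdac8 followed in that order, with either length in WT.

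The other genes of the cohesin pathway were taken from lists by role. Outside the 8 genes these lists hold 36 names, of which 33 are listed, 21 are plus-strand genes at 0 and 10 could be tested. Of these 10, 9 had a higher mean in Nipbl+/- cultures and 1 passed the test, with a median log2 fold change of 0.25 against -0.0057 over all genes. Over all tested genes 4386 of 9061 had a higher mean and 1.04% were called higher. The gene that passed, Bub1, is also in the mitosis list described later. Bub1, the checkpoint kinase whose histone mark brings shugoshin to centromeres, rose from 40.9, 46.6 and 42.5 CPM in WT to 56.4, 55.6 and 64.2 CPM in Nipbl+/- cultures, a log2 fold change of 0.44 (SE 0.076, adjusted p = 0.0328, edgeR). Without WT replicate 2 its adjusted p was 0.0238, and without any of the other 5 cultures it lay between 0.0719 and 0.139. Pttg1, the securin that holds separase in check, differed by 0.33 on the log2 scale without passing (adjusted p = 0.165), and Gsg2, the haspin kinase that marks centromeric chromatin, 0.28 (0.427). Among genes of cohesion at the replication fork, the values were 0.35 for Wdhd1 (adjusted p = 0.0922), 0.35 for Chtf18 (0.317), 0.23 for Dscc1 (0.583) and 0.04 for Chtf8 (0.753). Of the chromatin genes linked to similar syndromes or to Nipbl, Zfp609 was at 0.11 (adjusted p = 0.462) and Ankrd11 at 0.06 (0.579). Of the germline subunits on the minus strand, Smc1b had 0 to 5 counts in each culture and Rad21l had 0 counts in all 6.

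The related SMC complexes were counted in the same way, beside 1.04% of all tested genes called higher and 16.9% with an unadjusted p under 0.05. Of 8 condensin genes 2 were on the minus strand, and both rose: Ncaph, the kleisin of condensin I, from 28.9 ± 1.79 to 41.5 ± 3.66 CPM (SD, n = 3, log2 fold change 0.52, adjusted p = 0.0261, edgeR), and Ncapd2, a HEAT subunit of the same complex, from 36.7 ± 0.724 to 50.5 ± 4.77 CPM (0.46, adjusted p = 0.0283). Both were past the threshold without WT replicate 2 (adjusted p = 0.0302 for Ncaph and 0.0414 for Ncapd2) and not without any of the other 5 cultures, where it lay between 0.0501 and 0.118 for Ncaph and between 0.0579 and 0.12 for Ncapd2. Of the Smc5/6 complex, which acts in DNA repair, 4 genes were tested and 0 passed, by the quasi-likelihood test as by the other edgeR tests, DESeq2 and limma, with 1 at an unadjusted p under 0.05 (Nsmce4a). Their log2 fold changes were -0.17 for Smc5, 0.05 for Nsmce1, 0.16 for Nsmce4a and 0.11 for Ndnl2.

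Esco2 and Sgol1 are known to be transcribed mainly in dividing cells, so the values were set beside cell-cycle lists. Of 28 genes of G2 and M phase 17 could be tested, the other 11 being plus-strand genes at 0. All 17 had every Nipbl+/- culture above every WT culture, with a median log2 fold change of 0.41 and a range of 0.30 to 0.59, and 10 passed the test, Bub1 again among them, where 12% of all tested genes had their ranges apart in this direction and 1.04% were called higher. The others were Kif23 (0.59), Mki67 (0.52), Top2a (0.45), Ccna2 (0.44), Ccnb2 (0.42), Kif2c (0.42), Anln (0.41), Cdk1 (0.38) and Hmmr (0.30). The number that passed was 12 without WT replicate 2, 2 without WT replicate 3, 1 without Nipbl+/- replicate 3 and 0 without any one of WT replicate 1 and Nipbl+/- replicates 1 and 2. Summed over the list the level was 1153 to 1286 CPM in WT and 1570 to 1800 CPM in Nipbl+/- cultures. Of 26 genes of S phase 16 could be tested, 15 had a higher mean in Nipbl+/- cultures and 2 passed (Mcm6 at 0.45 and Mcm7 at 0.31, both subunits of the replicative helicase), with a median of 0.27. Over all genes 4386 of 9061 had a higher mean and 1.04% were called higher. Without WT replicate 1, WT replicate 3, Nipbl+/- replicate 1 or Nipbl+/- replicate 2 neither gene passed, and without Nipbl+/- replicate 3 only Mcm6 did (adjusted p = 0.0451, against 0.0807 for Mcm7).

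**Figure D4:**
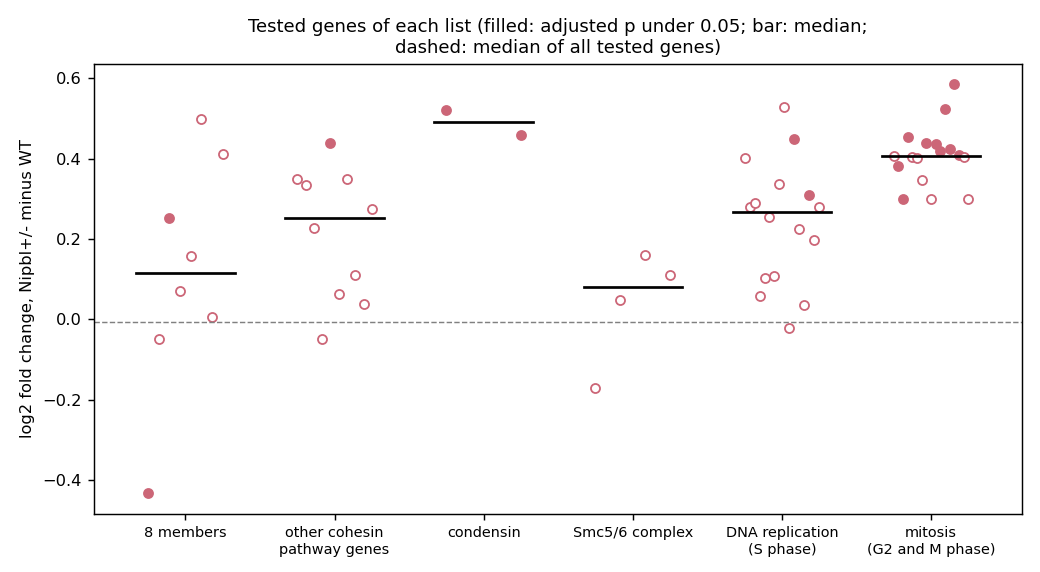
Log2 fold change (vertical axis, Nipbl+/- minus WT) of each tested gene in the 8 genes and in 5 lists, with filled points for an adjusted p under 0.05, a bar at each list's median and a dashed line at the median of all 9061 tested genes (-0.0057). Nipbl lies at -0.43 below every other point, Esco2 and Sgol1 lie among the genes of mitosis (0.30 to 0.59), and Bub1 is drawn both with the other cohesin pathway genes and in the mitosis list.

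Taken relative to the mean log2 CPM of the 17 mitosis genes in the same culture, the genotype difference of Sgol1 was 0.00 (exact permutation p = 0.9) and that of Esco2 0.08 (p = 0.6). Both genes thus differed between the genotypes by about as much as the mitosis list, whose mean differed by 0.41. The mean of the S phase list differed by 0.24, less than the log2 fold changes of Esco2 (0.50) and Sgol1 (0.41). Rad21 moved less than the mitosis list. Its value relative to that list was lower in every Nipbl+/- culture than in every WT culture (0.893, 0.864 and 0.715 against 1.06, 0.959 and 0.914 on the log2 scale). The difference was -0.15 (exact permutation p = 0.1), opposite in sign to its own log2 fold change of 0.25. That log2 fold change was close to the difference of 0.24 in the S phase list, and values relative to the S phase list were not taken. Nipbl was lower both by its own log2 fold change and relative to the mitosis list, where the difference was -0.84. The part of the cell-cycle genes, and of the macrophage markers given above, in the values of these genes was not tested. This comparison was chosen after the values were seen.

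The genes whose profile over the 6 cultures was most like that of Nipbl, by the root-mean-square difference of log2 CPM after centring each gene, were Fam115c (0.0135), Gorab (0.0370), Lgalsl (0.0532), Hsd3b2 (0.0547) and AC162464.1 (0.0549), of 8342 genes with an average log2 CPM above 0 and a median difference of 0.253. Their log2 fold changes were -0.45, -0.50, -0.37, -0.40 and -0.41. Since they were picked for a profile that follows Nipbl over the same cultures, these values are a description and no test of genotype is given. They lie on chromosomes 6, 1, 11, 3 and 6. None of the other 7 cohesin genes was near the top of this order. Mau2 came nearest at rank 1891, and Sgol1 and Esco2 stood at ranks 7662 and 7916.

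No other tested gene within 5 Mb of Nipbl on chromosome 15 passed the test. Of 26 tested genes within 5 Mb, 8 had a higher and 18 a lower mean in Nipbl+/- cultures, 0 reached an adjusted p under 0.05 and 8 had an unadjusted p under 0.05 (edgeR), while 1 to 3 passed under 6 other fits. Over all tested genes 1.95% were called in either direction, 16.9% had an unadjusted p under 0.05 and 4386 of 9061 had a higher mean. Their median log2 fold change was -0.06, against -0.01 over the 348 tested genes of the chromosome. The nearest tested genes were Wdr70, at -0.192 Mb, with 26.2 ± 2.22 CPM in WT cultures and 26.3 ± 2.30 CPM in the Nipbl+/- ones (log2 fold change 0.01, adjusted p = 0.985), and Slc1a3, a glutamate transporter gene at 0.19 Mb on the side of higher coordinates, with 11.04 ± 3.70 CPM in WT and 9.69 ± 1.78 CPM in Nipbl+/- cultures (-0.19, adjusted p = 0.733). The value farthest from 0 was that of Rxfp3, singled out after its value was seen, at 1.76 ± 0.493 and 0.451 ± 0.321 CPM (-1.93, adjusted p = 0.0902). Rad21 lies on the same chromosome and outside this window.

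**Figure D5:**
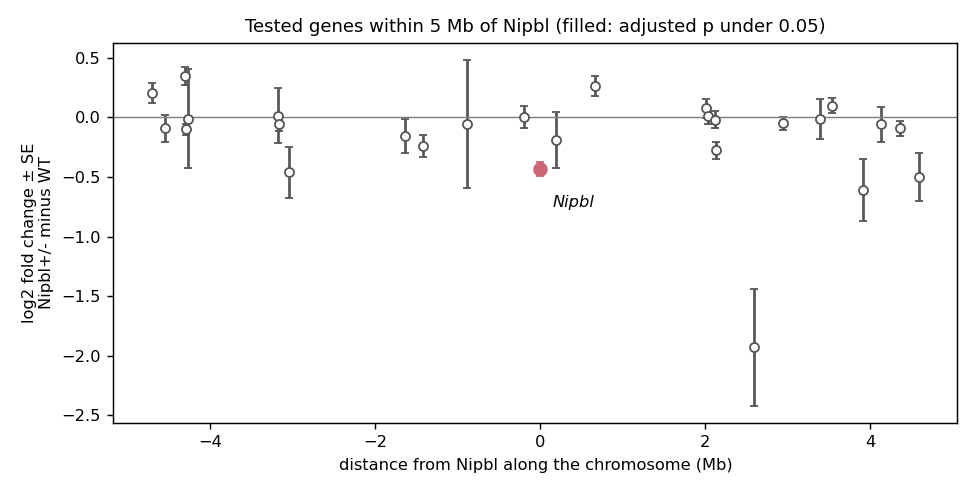
Log2 fold change with its SE (vertical axis, Nipbl+/- minus WT) of Nipbl (red) and of the 26 tested genes within 5 Mb of it (open), against the distance along chromosome 15 in Mb (horizontal axis). Only Nipbl, at -0.43, had an adjusted p under 0.05, its nearest neighbours lie at 0.01 and -0.19, and the lowest point is Rxfp3 at -1.93.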

How the data were processed

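All 6 MEF cultures at passage 3 were used, 3 WT and 3 Nipbl+/-, each measured by RNA-seq. Per the labels and the study's methods, the authors depleted total RNA of rRNA and aligned reads to mm10 with TopHat2 2.0.10 and Ensembl gene models. The counting tool and its strand setting are not given in the sources used here. The authors deposited raw read counts per gene. The deposited RPKM divides these counts by gene length and library size and followed them within 1% for all 7962 genes with at least 20 counts in each culture.

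Counts were filtered with filterByExpr (minimum count 10), scaled by TMM and compared between genotypes by edgeR 4.0.16 (R 4.3.3, glmQLFTest, its quasi-likelihood test) with no covariate, over 9061 genes with Benjamini-Hochberg adjustment and a threshold of 0.05. The common biological coefficient of variation was 10.8%. Replicates differed by more than sampling noise (chi-square per degree of freedom 10.15 to 34.57). SE was obtained from each log2 fold change and its F statistic. Log2 CPM used a prior count of 2. Permutation tests were exact and two-sided. Alternatives were other normalizations and filters, the exact test and the likelihood ratio test in edgeR, DESeq2 1.42.0, limma 3.58.1 on log2(RPKM + 0.1), a replicate block, Xist as covariate and each culture left out. The fits were tested on simulated data.

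The genes named come from the 8 genes, the cohesin and Smc5/6 lists (not every gene is named, and 1 tested gene is not reported here), called genes of the other lists, the 5 most Nipbl-like genes, neighbours, sex-linked genes and cell type markers. These genes and lists were chosen with earlier results of these data known.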

Additional observations from a re-analysis of the deposited data

How the results depend on the processing

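Across 11 other fits Nipbl was lower and past the threshold in 10. With limma on RPKM its log2 fold change was -0.38 (adjusted p = 0.0792), and the members then called were 0 lower. Rad21 was past the threshold in 7 of the 11. Its values were 0.24 with upper-quartile normalization, 0.29 with limma, 0.25 with the replicate block and 0.26 with Xist as covariate, each with 0 of the 8 genes called higher, and -0.15 relative to the mitosis list, where Esco2 was 0.0771 and Sgol1 0.0038. The values relative to the mitosis list are the log2 CPM of each gene less the mean of that list, which itself differed by 0.41. The cause of the other changes was not tested. Hdac8 turned from 0.01 to -0.0044 with upper-quartile normalization, -0.0050 with Xist as covariate, -0.03 without WT replicate 1 and -0.0738 without Nipbl+/- replicate 2. Mau2 turned to 0.0033 without Nipbl+/- replicate 2. No scaling moved the median of all genes beyond -0.0166 to 0.0345.

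Genes called higher (94) and lower (83) were 142 and 70 with library size alone, 173 and 152 with no filter, 218 and 213 with the exact test, 224 and 218 with the likelihood ratio test, 237 and 212 with DESeq2, and 17 and 14 with limma. Of other cohesin pathway genes 2 were called by the exact test, the likelihood ratio test and DESeq2, and 0 by limma, which also called 0 mitosis genes. Genes near Nipbl called were 1 with library size alone, 2 with no filter, 2 with the exact and the likelihood ratio test, 3 with DESeq2 and 1 with the Xist covariate.

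The correlations of same-numbered cultures were -0.098, -0.054 and -0.21, and no WT culture correlated best with its own number. In each same-numbered pair the cultures differed in sex by their sex-linked genes. These correlations therefore cannot show whether the replicate numbers pair the cultures by litter or batch. The replicate block left 34 genes called higher, 52 lower, 0 other cohesin pathway genes and 5 mitosis genes, with Nipbl at -0.43 (adjusted p = 0.0406).

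When single cultures were left out, genes called ranged from 1 to 130 higher and from 2 to 138 lower, members from 0 to 1 in each direction, other cohesin pathway genes from 0 to 1 and mitosis genes from 0 to 12. Nipbl ranged from -0.47 to -0.39 (past the threshold in 3 of 6), Rad21 from 0.23 to 0.27 (1 of 6), Mau2 from -0.0822 to 0.0033, Pds5a from 0.04 to 0.10, Esco1 from 0.11 to 0.21, Esco2 from 0.34 to 0.60, Hdac8 from -0.0738 to 0.0752 and Sgol1 from 0.31 to 0.48.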
